A study of Rattus norvegicus with 200 samples.

Results

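The genes described here were 5 Toll-like receptors, Tlr2, Tlr3, Tlr4, Tlr7 and Tlr9, the co-receptors Cd14 and Ly96, and the adaptor Myd88. They were taken by gene symbol from a table of expected counts for 20361 genes, and all 8 were found, as 8 of 20361 rows. The gene IDs that the table pairs with them were 310553 for Tlr2, 364594 for Tlr3, 29260 for Tlr4, 317468 for Tlr7, 338457 for Tlr9, 60350 for Cd14, 448830 for Ly96 and 301059 for Myd88. All 8 passed the filter on low counts, which left 14393 genes to be tested.

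The libraries were bulk RNA from the brain of adult male wild-type Wistar rats, an outbred stock, and the labels call the cells microglia, which are macrophages that live in the brain. The groups were a high-fat diet (HFD) with food always present (ad libitum, 34 libraries), HFD in the dark phase only (dark-feeding, 33), HFD in the light phase only (light-feeding, 33), chow in the dark phase only (33), chow in the light phase only (33) and chow ad libitum (34). Each group was collected at 6 Zeitgeber times (ZT), 4 h apart from ZT2 to ZT22, where ZT0 is lights on and ZT12 lights off, and 5 to 7 libraries stood for each group at each time. No label ties each of the 200 libraries to its own rat. The p-values therefore measure only the spread among libraries, which may in part be technical. The library titles formed 2 numbered series, 1 per diet, and no label says what the numbers order. Diet and anything else that differed between these series cannot be told apart.

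Toll-like receptors sense molecules that microbes and damaged cells release. TLR2 and TLR4 sit at the cell surface, where TLR2 binds bacterial lipoproteins and TLR4 binds lipopolysaccharide together with MD-2, the product of Ly96, to which CD14 hands it over. TLR3, TLR7 and TLR9 sit in endosomes and bind double-stranded RNA, single-stranded RNA and unmethylated CpG DNA. MYD88 is the adaptor that links the receptors other than TLR3 to the IRAK kinases and NF-kB, while TLR3 signals through TRIF. Microglia are the main cells of the brain that carry these receptors.

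Depth was 3.78 to 11.6 M reads a library (median 7.55 M, where M is 10 to the power of 6). Levels are given as CPM, the reads of a gene per M reads of its library after TMM scaling, or as FPKM, which also divides by length. The defining microglia markers were present, with Cx3cr1 at 61.8 ± 13.9, P2ry12 at 72.9 ± 14.7 and Tmem119 at 43.2 ± 10.4 CPM (SD, n = 200). The myelin gene Mbp, a marker of oligodendrocytes, was at 3480 ± 665 CPM in the same libraries, and the neuronal gene Snap25 at 383 ± 42.4 CPM. The median summed level was 15800 CPM for 12 oligodendrocyte markers, 3540 CPM for 12 neuron markers and 2320 CPM for 22 microglia markers. RNA of other brain cells was thus plentiful in these libraries, and its share was not estimated. In bulk RNA, fewer cells of a type and less RNA per cell cannot be told apart.

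The start regions of 3 genes are printed because these genes carried most of the differences described below, and they differ in the short motifs they hold. They are the 250 bases before the start of transcription, from RefSeq on build GRCr8, which is not the build of the count table. The region of Tlr2 is chr2:171504558-171504807 on the minus strand, that of Tlr7 is chrX:30644176-30644425 on the plus strand and that of Myd88 is chr8:127956231-127956480 on the minus strand. Capitals mark matches, on either strand, to an NF-kB motif (GGG, any 5 bases, CC), a motif of PU.1-type ETS factors (GAGGAA), an AP-1 motif (TGANTCA) and an IRF motif (GAAA, any 2 bases, GAAA).
Tlr2: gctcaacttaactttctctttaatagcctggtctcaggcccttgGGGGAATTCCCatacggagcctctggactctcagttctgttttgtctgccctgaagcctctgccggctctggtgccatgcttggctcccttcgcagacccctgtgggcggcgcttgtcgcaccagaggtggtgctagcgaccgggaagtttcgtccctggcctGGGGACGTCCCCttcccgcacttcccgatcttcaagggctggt
Tlr7: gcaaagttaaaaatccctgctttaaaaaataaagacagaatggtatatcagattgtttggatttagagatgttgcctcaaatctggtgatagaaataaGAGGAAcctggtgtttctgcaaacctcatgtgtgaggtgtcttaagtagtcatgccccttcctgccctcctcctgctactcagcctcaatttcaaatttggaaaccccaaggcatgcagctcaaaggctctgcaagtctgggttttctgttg
Myd88: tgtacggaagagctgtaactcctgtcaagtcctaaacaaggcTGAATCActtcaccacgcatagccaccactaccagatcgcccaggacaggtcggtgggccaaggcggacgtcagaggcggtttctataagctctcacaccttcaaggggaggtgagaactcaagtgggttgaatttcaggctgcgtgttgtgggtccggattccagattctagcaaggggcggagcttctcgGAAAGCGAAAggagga

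In Tlr2 the capitals are 2 stretches that hold 5 overlapping starts of the NF-kB motif. In Tlr7 they are 1 GAGGAA, and in Myd88 an AP-1 match followed by an IRF match close to the start. Among 33469 promoters of the same length, 42.3% held the NF-kB motif, 23.3% held GAGGAA, 6.34% held TGANTCA and 3.41% held the IRF motif. Of the other members with an entry, GAGGAA was found in Tlr3, Tlr4, Tlr9 and Cd14, the NF-kB motif in Tlr3 and TGANTCA in Tlr9. CACGTG (an E-box, in 5.59% of promoters) and TATAAA (in 12.9%) were not in these 7 windows. RefSeq entries were matched for 7 of the 8 members, Ly96 being the member with none. A match describes the letters and no more.

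Of the surface receptors, Tlr2 was the most abundant member per length, at 6.83 ± 1.74 FPKM (SD, n = 200). It had 16.4 ± 4.04 CPM, from 8.35 to 30.0 with a median of 16.2. Tlr4 was near the bottom of the order, at 1.06 ± 0.346 FPKM, and had 3.24 ± 1.03 CPM, from 1.06 to 7.85 with a median of 3.15. Its partners were also low. Cd14 had 1.32 ± 0.46 FPKM and 1.75 ± 0.595 CPM, from 0.231 to 3.59 with a median of 1.68. Ly96, a short transcript, had 3.05 ± 1.00 FPKM but 1.5 ± 0.501 CPM, from 0.391 to 3.33 with a median of 1.42. The lipopolysaccharide receptor complex was thus read from few reads: the median counts per library were 24 for Tlr4, 13 for Cd14 and 11 for Ly96, against 120 for Tlr2.

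Among the endosomal receptors, Tlr7 was the highest member by CPM and second per length, with 20.3 ± 4.29 CPM and 4.91 ± 1.12 FPKM. Its libraries ran from 11.5 to 36.1 CPM with a median of 20.1. Tlr3 had 7.92 ± 1.72 CPM, from 3.93 to 15.6 with a median of 7.91, and 2.28 ± 0.523 FPKM. Tlr9 was the lowest member per length, at 0.838 ± 0.280 FPKM, and had 2.49 ± 0.815 CPM, from 0.943 to 5.07 with a median of 2.39. The adaptor Myd88 had 6.02 ± 1.84 CPM, from 2.30 to 14.0 with a median of 5.77, and 3.14 ± 1.02 FPKM. In FPKM the order was Tlr2, Tlr7, Myd88, Ly96, Tlr3, Cd14, Tlr4 and Tlr9. Most neighbours were in this order in most libraries, with Tlr2 above Tlr7 in 192 of 200 libraries, Tlr7 above Myd88 in 192 and Cd14 above Tlr4 in 138. Myd88 and Ly96 were not separable, since Myd88 was the higher in 102 of 200.

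The relative spread between all libraries was 24.6% (coefficient of variation) for Tlr2, 21.8% for Tlr3, 21.1% for Tlr7 and 30.6% for Myd88. Counting error alone, taken as 1 over the square root of the mean count, would give 8.96%, 12.9%, 8.08% and 14.8% for these genes. For Cd14 and Ly96 the spread was 33.9% and 33.4%, of which counting alone would give 27.4% and 29.7%. Differences in Cd14 and Ly96 are therefore detectable only where they are large at this depth, and the same holds to a lesser degree for Tlr4 (31.7%, counting 20.3%) and Tlr9 (32.7%, counting 23.0%).

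**Figure D1:**
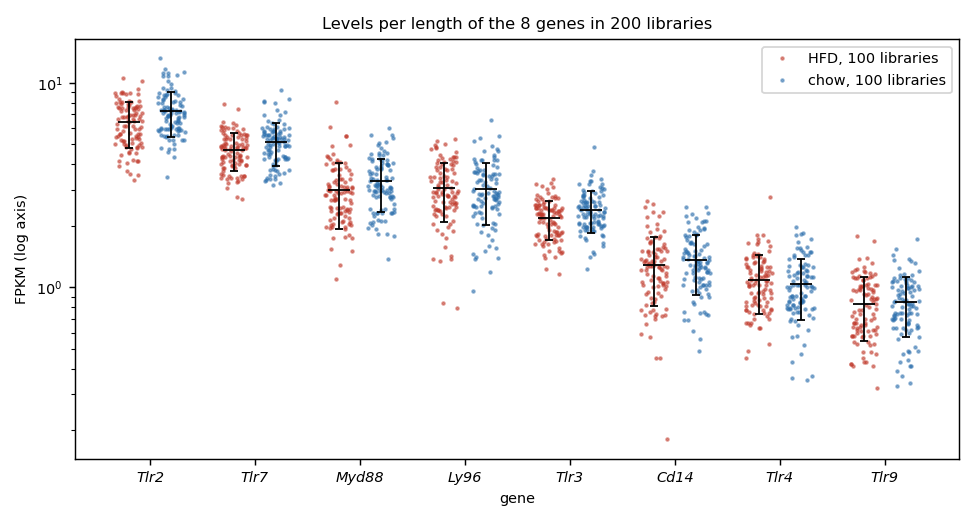
FPKM (log axis) of the 8 genes, ordered by mean, in 100 HFD (red) and 100 chow (blue) libraries; each point is a library, and the bar with whiskers is the mean ± SD. Means over all libraries descend from 6.83 FPKM for Tlr2 to 0.838 FPKM for Tlr9, and the clouds of HFD and chow overlap for every gene.

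HFD was compared with chow within each feeding schedule, with time as a factor. Tlr2 was slightly lower under HFD in 2 of the 3 schedules, and no other member passed the test. Myd88 had an estimate of the same size as Tlr2 under dark-feeding and lay just outside the threshold. Ad libitum the estimates over the 8 members ran from -0.22 to 0.07 on the log2 scale. A member that was not called thus had a larger estimated decrease than Tlr2 (-0.20). Myd88 had 5.4 ± 2.2 CPM under HFD and 6.17 ± 1.85 CPM under chow ad libitum, and was not called. Under ad libitum feeding the Tlr2 libraries had a lowest, median and highest value of 8.76, 15.8 and 23.7 CPM under HFD, against 11.3, 17.4 and 30.0 CPM under chow. The groups overlapped over most of their range. The means were 15.7 ± 3.40 CPM under HFD and 18.1 ± 4.52 CPM under chow (SD, n = 34 each), a log2 fold change of -0.20 (SE 0.07, 95% interval -0.35 to -0.05), with an adjusted p of 0.044 by edgeR's quasi-likelihood test. HFD was the lower at 4 of 6 times. Single libraries decided the call: without the highest chow library, at 30.0 CPM, the log2 fold change was -0.157 (edgeR adjusted p 0.0971), and without the HFD library highest for Cd14 at ZT14 it was -0.20 (edgeR adjusted p 0.0521). With all libraries, 1 of 8 members was called lower (adjusted p under 0.05), against 10.1% of all tested genes, which is near that background.

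Under dark-feeding the Tlr2 libraries had a lowest, median and highest value of 9.01, 13.4 and 25.0 CPM under HFD, against 8.35, 16.7 and 27.6 CPM under chow. These ranges almost coincided, with the HFD median displaced downwards. The means were 15.3 ± 4.13 CPM under HFD and 17.2 ± 4.03 CPM under chow (SD, n = 33 each), a log2 fold change of -0.18 (SE 0.07, 95% interval -0.33 to -0.04), with an adjusted p of 0.036 by edgeR, and HFD was the lower at 5 of 6 times. Again 1 of 8 members was called lower, against 23.1% of all tested genes. Myd88 had 6.08 ± 1.83 CPM under HFD and 6.83 ± 1.54 CPM under chow, a log2 fold change of -0.18 (SE 0.08) with an edgeR adjusted p of 0.051. Without 1 library it was called, at -0.193 (edgeR adjusted p 0.0409) without the chow library lowest for Tlr2 at ZT18, and at -0.21 (edgeR adjusted p 0.0205) without the HFD library highest for Tlr9 at ZT2.

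Under light-feeding edgeR called 0 of 8 members in either direction, against 50.3% of all tested genes, with 0 at an unadjusted p under 0.05 and 0 by DESeq2. Tlr2 had 15.8 ± 3.78 CPM under HFD and 16.5 ± 3.93 CPM under chow (SD, n = 33 each). The estimates over the 8 members ran from -0.11 to 0.18 on the log2 scale, and their 95% intervals lay within -0.27 to 0.40, with the highest estimate for Tlr4. The median log2 fold change of the members was -0.115 ad libitum, -0.05 under dark-feeding and -0.035 under light-feeding, against -0.012, -0.007 and -0.006 over all tested genes.

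Tlr7, Tlr3, Tlr4, Tlr9, Cd14 and Ly96 did not pass the test in any diet comparison. Tlr7 had 19.9 ± 3.71 CPM under HFD and 21.6 ± 4.64 CPM under chow ad libitum, with an edgeR adjusted p of 0.25. Group means of the rest were close, within 7.49 to 8.20 CPM for Tlr3, 3.02 to 3.38 CPM for Tlr4, 2.30 to 2.63 CPM for Tlr9, 1.65 to 1.86 CPM for Cd14 and 1.38 to 1.63 CPM for Ly96. Whether the diet difference itself varied with the schedule was tested as an interaction. EdgeR called 0 of 8 members for dark-feeding, where it called 0.792% of all tested genes, and 0 of 8 for light-feeding, where it called 9.81%, with 0 members at an unadjusted p under 0.05 in both. DESeq2 was not run on these interactions.

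Many markers of the cells moved with diet. Of all tested genes, edgeR called 20.1% ad libitum, 45.9% under dark-feeding and 50.3% under light-feeding in either direction. It called 10.1% lower ad libitum and 23.1% lower under dark-feeding. Of 22 microglia markers, none of them a gene described here, HFD was called lower than chow for 9 ad libitum, 14 under dark-feeding and 13 under light-feeding, with median log2 fold changes of -0.219, -0.274 and -0.244, and higher for 0. Their summed level ran from 1400 to 3280 CPM under HFD and from 1440 to 5000 CPM under chow ad libitum. It ran from 1550 to 3060 CPM under HFD and from 1390 to 4190 CPM under chow in dark-feeding, and from 1430 to 2900 CPM under HFD and from 1990 to 4310 CPM under chow in light-feeding. No microglia marker had a median count of 0 over all 200 libraries. Of 12 oligodendrocyte markers HFD was called higher for 3, 8 and 8 in the same order of schedules, and of 12 astrocyte markers it was called lower for 0, 11 and 11 and higher for 0, 1 and 1. Under dark-feeding and light-feeding, but not clearly ad libitum, vascular markers moved further than those of microglia. Of 7 endothelial markers HFD was called lower for 1, 6 and 7, with medians of -0.268, -0.544 and -0.738. Of 6 mural cell markers it was called lower for 1, 5 and 5 and higher for 0, 1 and 0, with medians of -0.181, -0.784 and -0.859. Ad libitum the endothelial and mural counts were near the share of all tested genes called lower. With marker scores of 5 other brain cell types as covariates, the log2 fold change of Tlr2 was -0.222 ad libitum (edgeR adjusted p 0.0192) and -0.186 under dark-feeding (edgeR adjusted p 0.249).

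With the mean log2 CPM of the 22 microglia markers (microglia score) as a covariate, the lower Tlr2 under HFD was no longer called. Its log2 fold change was -0.035 ad libitum (edgeR adjusted p 0.647) and 0.111 under dark-feeding (edgeR adjusted p 0.083), and 0 of 8 members were called in either schedule, against 18.6% and 33.7% of all tested genes in those fits. Under light-feeding 5 of 8 members were then called higher under HFD, against 25.3% of all tested genes higher, and 49.5% in either direction, in that fit. These were Tlr4 by 0.395, Tlr9 by 0.319, Myd88 by 0.200, Tlr2 by 0.177 and Tlr7 by 0.112 on the log2 scale, with edgeR adjusted p-values of 0.000838, 0.00643, 0.0241, 0.00205 and 0.039. Relative to microglia markers, these genes were thus higher under HFD than under chow in light-feeding, while their share of all reads did not pass the test. With the scores of the other brain cell types as covariates instead, none of these genes was called in light-feeding. The log2 fold changes were then 0.079 for Tlr4, -0.033 for Tlr9, 0.157 for Myd88, 0.058 for Tlr2 and 0.031 for Tlr7. Their edgeR adjusted p-values ran from 0.498 to 0.934. The calls therefore depended on which score was in the model.

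**Figure D2:**
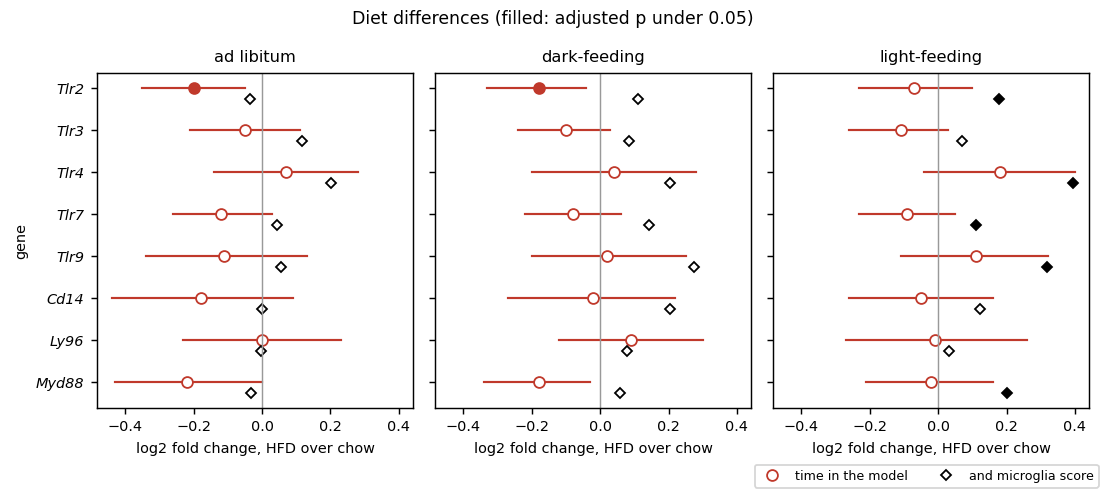
Log2 fold change of HFD over chow for the 8 genes in each feeding schedule. Red circles and lines are the estimate and 95% interval with time in the model, black diamonds the estimate with the microglia score added, and filled symbols have an adjusted p under 0.05: Tlr2 is the filled circle ad libitum (-0.20) and under dark-feeding (-0.18), and 5 diamonds are filled under light-feeding.

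Feeding schedules were compared within each diet. No member passed the test between schedules when all times were averaged: edgeR and DESeq2 each called 0 of 8 members in all 6 comparisons. All tested genes were called by edgeR in either direction at 4.7% for HFD dark-feeding against ad libitum, 10.7% for HFD light-feeding against ad libitum, 0.0834% for HFD light- against dark-feeding, 0.0% for chow dark-feeding against ad libitum, 1.6% for chow light-feeding against ad libitum and 0.0% for chow light- against dark-feeding. At an unadjusted p under 0.05 the counts were 0 in 5 comparisons and 1 in chow light- against dark-feeding. That gene was Myd88, at 5.85 ± 1.66 CPM under light-feeding and 6.83 ± 1.54 CPM under dark-feeding (SD, n = 33 each), with an edgeR adjusted p of 1.0. The widest range of estimates, -0.24 to 0.20 on the log2 scale, was in HFD light-feeding against ad libitum.

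Daily variation was fitted separately in every group by a 24 h cosine curve. Tlr2, Tlr7, Cd14 and Myd88 were called as varying over the day in some groups, with fitted peak-to-trough changes of 1.36-fold to 1.85-fold. Tlr3, Tlr4, Tlr9 and Ly96 passed the test in none. Except in HFD light-feeding, the number of members called in a group was near the share of all tested genes called there. Under HFD ad libitum and dark-feeding the called genes peaked in the light phase, before ZT6. In chow ad libitum no member was called. Where libraries of a pair of times are compared below, these times had the highest and lowest means and were picked after the values were seen. Lack of overlap between them is therefore a description and adds no support to a call.

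Under HFD ad libitum Tlr2 averaged 17.8 ± 2.53, 17.7 ± 3.96, 17.8 ± 2.60, 13.4 ± 2.04, 12.2 ± 2.29 and 16.3 ± 2.57 CPM at ZT2, 6, 10, 14, 18 and 22 (SD, n = 5 or 6). The 3 light-phase means stood together above those at ZT14 and ZT18. The fitted change was 0.56 on the log2 scale (1.47-fold) with a peak at ZT4.8, and an edgeR adjusted p of 0.0037. Myd88 had a wider swing in the same libraries. Its lowest, median and highest values were 4.88, 5.70 and 14.0 CPM at ZT6 (n = 5) and 2.30, 3.38 and 4.52 CPM at ZT18 (n = 6), so these times did not overlap. The fitted change was 0.89 (1.85-fold) with a peak at ZT5.1 and an edgeR adjusted p of 0.0069. Thus 2 of 8 members were called, against 19.6% of all tested genes.

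Under HFD dark-feeding Tlr2 had a lowest, median and highest value of 13.4, 19.5 and 25.0 CPM at ZT2 (n = 6) and of 10.6, 11.3 and 12.2 CPM at ZT14 (n = 5), again without overlap. Its fitted change was 0.76 (1.69-fold) with a peak at ZT4.9, and an edgeR adjusted p of 0.00081. Cd14, the co-receptor, had 1.75, 2.19 and 3.59 CPM at ZT2 and 0.894, 0.964 and 1.53 CPM at ZT14, for its lowest, median and highest libraries. These did not overlap either. Its fitted change was 0.84 (1.79-fold) with a peak at ZT1.7, and an edgeR adjusted p of 0.024. Here 2 of 8 members were called, against 27.5% of all tested genes. Without the library that stood apart for Tlr9 at ZT2, the change of Cd14 was 0.704 with an edgeR adjusted p of 0.0724. Myd88 (0.57, peak ZT4.4) and Tlr7 (0.41, peak ZT4.1) came close to the threshold, with edgeR adjusted p-values of 0.051 and 0.058, and Tlr7 was called (0.481, edgeR adjusted p 0.0212) without the library that stood apart for it at ZT14.

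Under HFD light-feeding Myd88 was the member called, against 0.841% of all tested genes. It averaged 4.11 ± 0.806, 6.73 ± 2.15, 7.67 ± 1.40, 6.53 ± 1.2, 4.76 ± 0.517 and 5.08 ± 1.01 CPM at ZT2, 6, 10, 14, 18 and 22 (SD, n = 5 or 6). Every library at ZT10, from 6.08 to 9.41 CPM, was above every library at ZT2, from 3.04 to 5.21 CPM. The fitted change was 0.76 (1.70-fold) with a peak at ZT10.4, and an edgeR adjusted p of 0.026. Without the library that stood apart for Tlr2 at ZT22 it was 0.73 with an edgeR adjusted p of 0.0529.

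In chow dark-feeding Tlr7 averaged 21.1 ± 4.59, 22.1 ± 1.48, 23.2 ± 3.10, 24.2 ± 4.85, 17.3 ± 4.27 and 16.9 ± 3.23 CPM from ZT2 to ZT22 (SD, n = 5 or 6), and the means at ZT18 and ZT22 stood below the rest. Its fitted change was 0.50 (1.41-fold) with a peak at ZT9.3, and an edgeR adjusted p of 0.015. Tlr2 was also called there, at 0.48 (1.39-fold), a peak at ZT7.7 and an edgeR adjusted p of 0.04, though it was lost under 10 of 13 alternatives, among them leaving out its lowest library at ZT18 (0.403, edgeR adjusted p 0.0725). This made 2 of 8 members, against 22.9% of all tested genes. In chow light-feeding Tlr7 averaged 21.8 ± 8.32, 16.5 ± 2.41, 18.1 ± 1.75, 21.5 ± 1.66, 24.0 ± 6.49 and 21.3 ± 2.14 CPM over the same times, and its lowest mean was at ZT6. Its fitted change was 0.44 (1.36-fold) with a peak at ZT19.2 in the dark phase, and an edgeR adjusted p of 0.046, as 1 of 8 members against 20.3% of all tested genes. Leaving out 1 library took it past the threshold in 2 cases: without the library highest for Tlr3 and Myd88 at ZT18 it was 0.348 (edgeR adjusted p 0.0881), and without the library highest for Tlr3 at ZT22 it was 0.447 (edgeR adjusted p 0.0562). In chow ad libitum edgeR called 0 of 8 members, with 0 at an unadjusted p under 0.05, against 4.56% of all tested genes, and DESeq2 was not run on rhythms.

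Fitted peaks of all 8 members, called or not, fell in the light phase for 7 under HFD ad libitum, 7 under HFD dark-feeding, 5 under HFD light-feeding, 6 in chow dark-feeding, 4 in chow ad libitum and 2 in chow light-feeding. The median peak-to-trough change of the 8 members was 0.365 under HFD ad libitum, 0.465 under HFD dark-feeding, 0.325 under HFD light-feeding, 0.34 in chow dark-feeding, 0.385 in chow light-feeding and 0.305 in chow ad libitum, on the log2 scale. Over all tested genes the medians were 0.199, 0.216, 0.144, 0.242, 0.214 and 0.196 in the same order. These medians are given as a description, with no test.

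**Figure D3:**
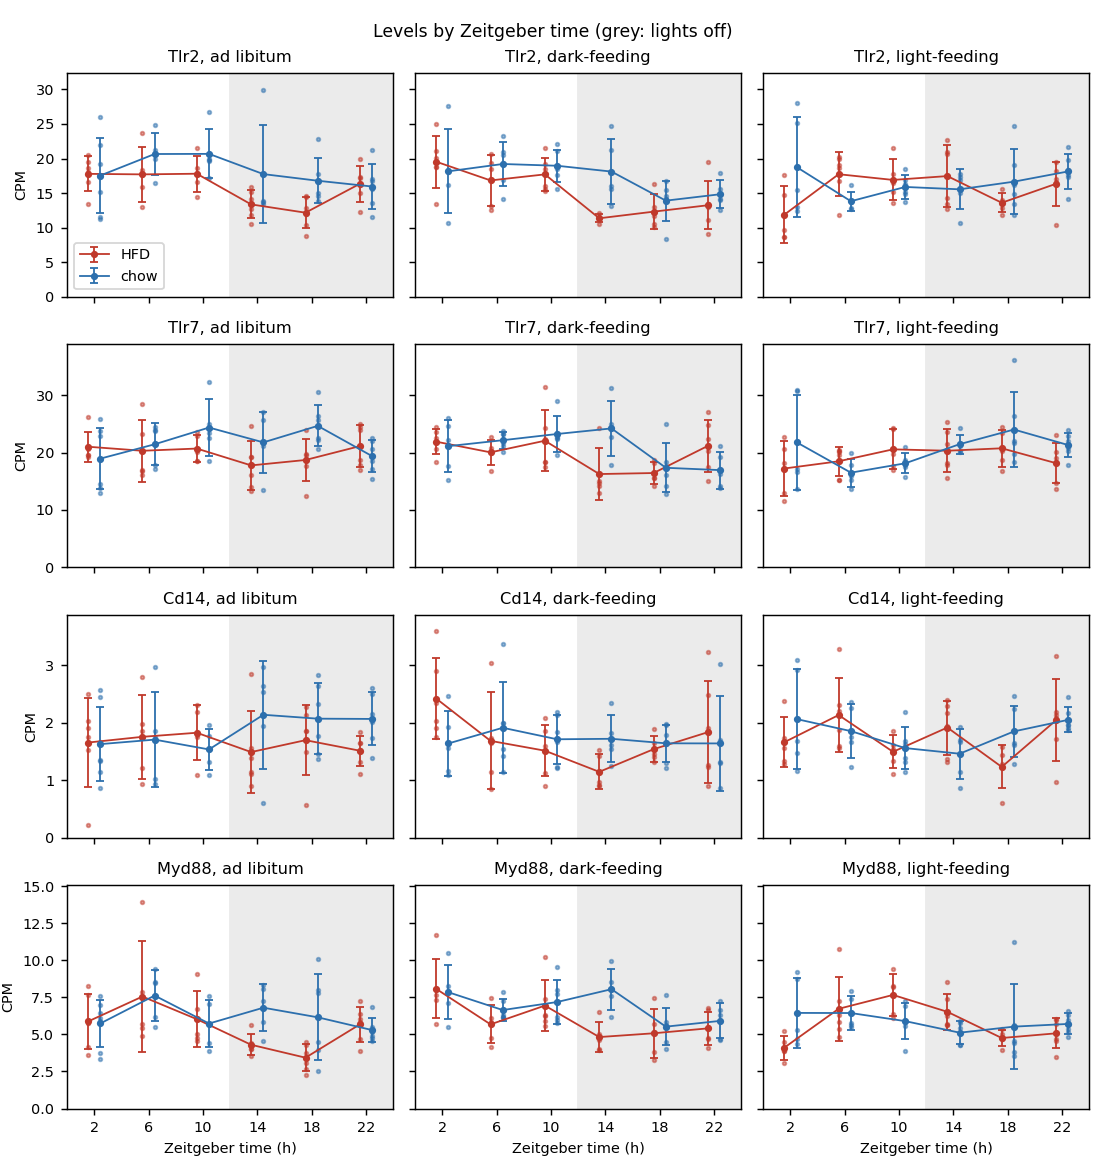
CPM of Tlr2, Tlr7, Cd14 and Myd88 by Zeitgeber time (h) in HFD (red) and chow (blue), with a column per feeding schedule; points are libraries, lines join the means, whiskers are SD and grey is lights off. Under HFD dark-feeding the Tlr2 libraries at ZT14 (10.6 to 12.2 CPM) lie below those at ZT2 (13.4 to 25.0 CPM), and under HFD light-feeding Myd88 peaks at ZT10 (7.67 ± 1.40 CPM).

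Whether a rhythm differed between groups was tested as the interaction of the group with both terms of the curve. Myd88 was the member with such a difference, and both of its calls involved HFD light-feeding. Between HFD light-feeding, where its peak was at ZT10.4, and HFD ad libitum, where it was at ZT5.1, the difference curve had a peak-to-trough size of 1.05 on the log2 scale, with an edgeR adjusted p of 0.015. That was 1 of 8 members, against 10.5% of all tested genes. Between HFD light-feeding and chow light-feeding it was 0.85, with an edgeR adjusted p of 0.045, again 1 of 8 members, against 9.17%. In chow light-feeding Myd88 averaged 6.45 ± 2.35, 6.45 ± 1.15, 5.90 ± 1.2, 5.12 ± 0.780, 5.53 ± 2.89 and 5.71 ± 0.704 CPM from ZT2 to ZT22 (SD, n = 5 or 6). The chow curve was called rhythmic, at 0.505 with an edgeR adjusted p of 0.0366, without the highest library at ZT18 (11.2 CPM). The 2 comparisons share the HFD light-feeding libraries and are not independent.

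The adjusted p of the comparison with chow lay near the threshold, and single libraries moved it across while the size stayed alike. Without the chow library highest for Tlr3 at ZT22 the difference was 0.869 (edgeR adjusted p 0.0508), and without the HFD library lowest for Tlr2 at ZT22 it was 0.819 (edgeR adjusted p 0.0632). The difference between HFD light-feeding and HFD ad libitum was kept under 15 of 19 alternatives, and was lost without ZT2, without ZT14, with the microglia score and with runs of libraries as the unit.

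No member was called in the other 5 differences in rhythm. HFD against chow gave 0 of 8 ad libitum, where edgeR called 0.0% of all tested genes and 2 members had an unadjusted p under 0.05, and 0 of 8 under dark-feeding, with the same 0.0% and 2 members. The largest of these was Myd88 ad libitum at 0.86, with an edgeR adjusted p of 0.22, so the called rhythm of Myd88 in HFD ad libitum is not shown to differ from the uncalled curve in chow ad libitum. Likewise for Tlr2, HFD against chow gave 0.48 ad libitum and 0.51 under dark-feeding, with edgeR adjusted p-values of 0.34 and 0.33. Dark-feeding against ad libitum gave 0 of 8 in HFD and in chow, each against 0.0347%, with 0 at an unadjusted p under 0.05. Light-feeding against ad libitum in chow gave 0 of 8 against 11.3%, with 2 at an unadjusted p under 0.05, of which Tlr2 (0.66, edgeR adjusted p 0.082) was the closest to the threshold.

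**Figure D4:**
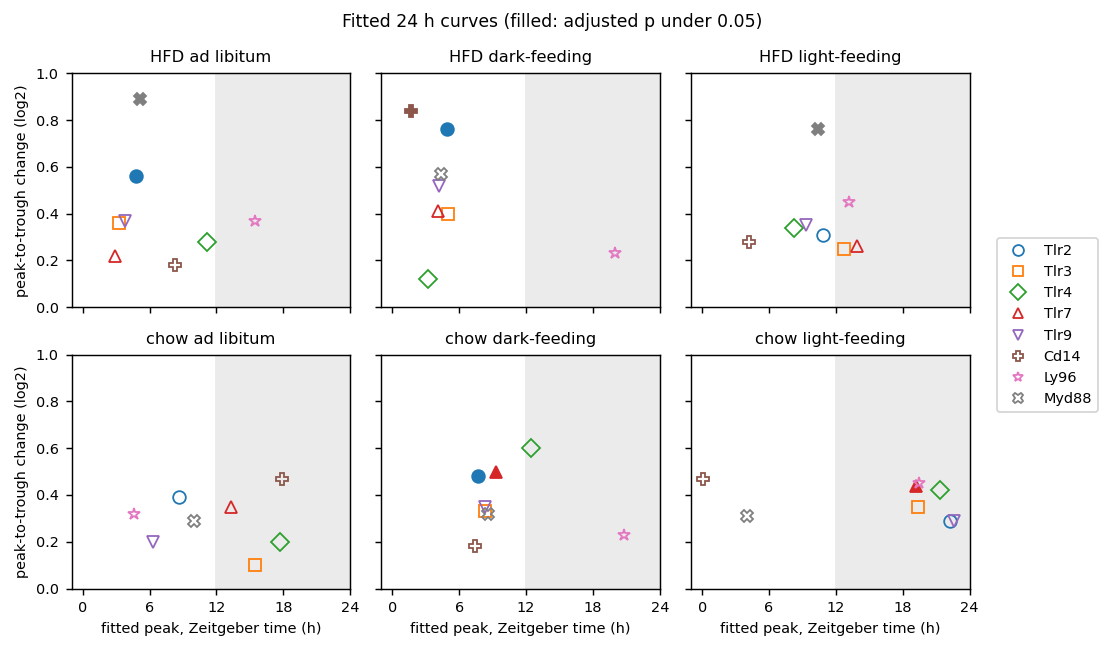
Fitted peak (Zeitgeber time, h) and peak-to-trough change (log2) of the 24 h curves of the 8 genes in the 6 groups; filled symbols have an adjusted p under 0.05 and grey is lights off. Filled symbols reach 0.89 for Myd88 in HFD ad libitum and 0.84 for Cd14 in HFD dark-feeding, and none is filled in chow ad libitum.

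Under HFD ad libitum and HFD dark-feeding, microglia markers moved with the time of day beside these genes. Of the 22 markers, 16 were called rhythmic under HFD ad libitum, 13 under HFD dark-feeding, 0 under HFD light-feeding, 6 in chow dark-feeding, 5 in chow light-feeding and 0 in chow ad libitum. All tested genes were called at 19.6%, 27.5%, 0.841%, 22.9%, 20.3% and 4.56% in the same order. In chow dark-feeding and chow light-feeding the marker counts were near these shares. The mean microglia score under HFD ad libitum was 5.71, 5.71, 5.63, 5.39, 5.35 and 5.69 from ZT2 to ZT22, and its low at ZT14 and ZT18 was at the same times as the low of Tlr2 and Myd88. Under HFD light-feeding it was 5.30, 5.57, 5.62, 5.71, 5.54 and 5.55. Of 7 tested markers of monocytes and neutrophils, 1 was called rhythmic under HFD ad libitum, 5 under HFD dark-feeding and 3 under HFD light-feeding. Their summed level ran from 26.3 to 180 CPM, 26.2 to 87.1 CPM and 26.2 to 235 CPM in these groups. Of the 12 listed markers of these cells, tested or not, 1 had a median count of 0 over all 200 libraries. Of 4 tested B-cell markers 3, 4 and 1 were called rhythmic in the same order of HFD groups, with summed levels of 2.85 to 27.0 CPM, 2.41 to 18.0 CPM and 2.48 to 17.2 CPM. Of 12 tested markers of T and NK cells 3, 2 and 0 were called, with summed levels of 15.9 to 126 CPM, 22.3 to 110 CPM and 25.2 to 111 CPM. Over all 200 libraries no B, T or NK marker had a median count of 0. In HFD light-feeding, where Myd88 was called, the mean B-cell score was 0.20, 1.15, 1.49, 1.33, 0.77 and 0.73 from ZT2 to ZT22. The mean score of T and NK cells was 1.30, 1.64, 2.19, 1.78, 1.37 and 1.42 at these times. That of monocytes and neutrophils was 1.35, 2.18, 2.45, 2.37, 1.68 and 1.41. Each of these scores was highest at ZT10 and lowest at ZT2, as Myd88 was.

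With the microglia score as a covariate, an alternative chosen after the rhythms were seen, 0 members were called rhythmic in any HFD group, but the fitted sizes moved unequally. In HFD ad libitum the change was 0.175 for Tlr2 and 0.314 for Myd88 (edgeR adjusted p 0.266 and 0.249), and in HFD dark-feeding it was 0.188 for Tlr2 (edgeR adjusted p 0.424), well below the values without the score. Cd14 in HFD dark-feeding had 0.631 (edgeR adjusted p 0.201), against 0.84 without the score, and Myd88 in HFD light-feeding had 0.656 (edgeR adjusted p 0.117), against 0.76 without it. The Myd88 differences were 0.403 for HFD light-feeding against HFD ad libitum (edgeR adjusted p 0.628) and 0.341 for HFD against chow in light-feeding (edgeR adjusted p 0.577). In chow the same fit called 1 member ad libitum, 0 under dark-feeding and 2 under light-feeding. The part of the RNA of monocytes, neutrophils, B, T and NK cells was not tested. With runs of neighbouring library numbers summed and used as the unit, also chosen after the rhythms were seen, the rhythm of Tlr2 under HFD dark-feeding was the call that remained, against 4.29% of all tested genes in that fit.

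Within groups and times, libraries with more of the microglia markers also had more of most of these genes. Each value was taken as the deviation of log2 CPM from the mean of its group and time, over 200 libraries, in a family of 44 relations with permutation tests of 100000 resamples. With the microglia score Pearson's r was 0.81 for Tlr2 (Spearman's rho 0.81), 0.75 for Tlr7 (0.73), 0.69 for Tlr3 (0.65) and 0.57 for Myd88 (0.53). It was 0.48 for Tlr9 (0.43), 0.44 for Tlr4 (0.40) and 0.43 for Cd14 (0.37). For these 7 the adjusted permutation p of r was 1.6e-05, from the smallest raw p that the resamples give, 1e-05. Ly96 stood apart, with r of 0.06 (rho 0.07) and an adjusted permutation p of 0.46. Without the 2 libraries farthest from the median deviation of the gene itself, r was 0.79 for Tlr2, 0.73 for Tlr7, 0.66 for Tlr3 and 0.55 for Myd88. Libraries with extreme microglia scores were not left out. Within HFD libraries r was 0.82 for Tlr2, 0.70 for Tlr7, 0.61 for Tlr3 and 0.46 for Myd88, and within chow libraries it was 0.81, 0.80, 0.75 and 0.65 for the same genes.

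Between members, 25 of 28 pairs had r above 0, and 21 passed an adjusted permutation p of 0.05 for both r and rho. The values ran from -0.06 to 0.71 with a median of 0.34. The closest pair was the surface receptor Tlr2 with the endosomal receptor Tlr7, at r 0.71 and rho 0.69. For this pair r was 0.68 within HFD and 0.74 within chow libraries, and 0.70 without the 2 libraries farthest from the median deviation of Tlr2. Tlr3 with Tlr7 had r 0.61. The mean score of monocyte and neutrophil markers was most closely followed by Myd88, at r 0.48, and least by Ly96, at 0.04. All of these relations share the depth and the cell makeup of each library.

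**Figure D5:**
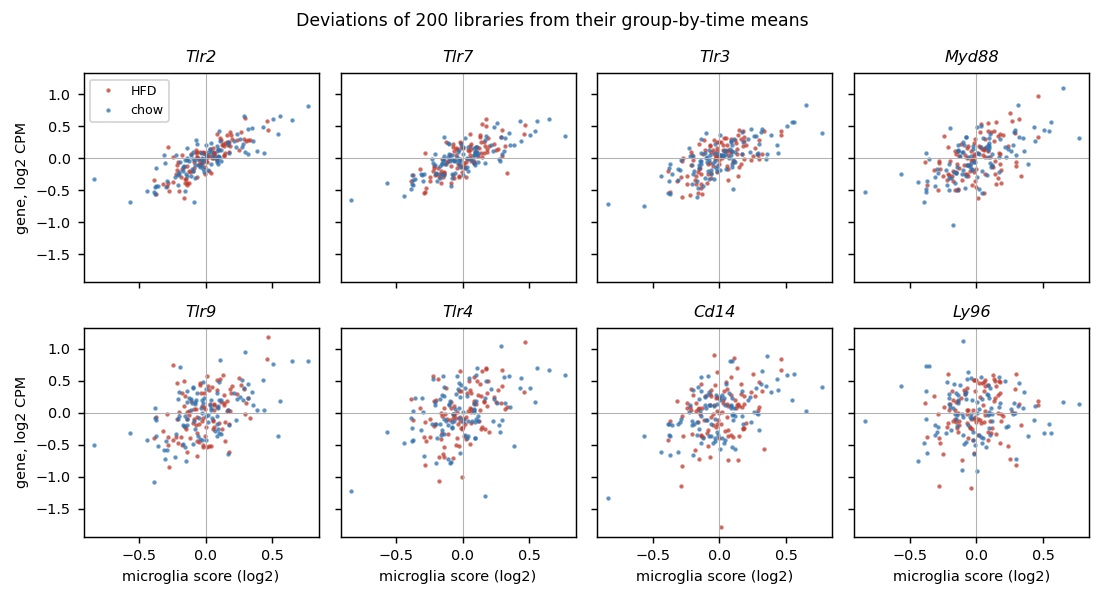
Deviation of each gene's log2 CPM (vertical) from its group-by-time mean against the same deviation of the microglia score (horizontal), in HFD (red) and chow (blue) libraries, 200 in all. The cloud is narrowest for Tlr2 (r 0.81) and has no slope for Ly96 (r 0.06).

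The genes most like each member over the 36 group-by-time means were found among 11350 tested genes with at least 5 CPM, by Pearson's r, as a description. Tlr2 was most like Cx3cr1, the fractalkine receptor of microglia, Lilrb3l and Adgre1, at 0.91 each. Tlr7 was most like P2ry12, the purinergic receptor of resting microglia (0.90), and Il7r (0.84). Tlr3 was most like P2ry13 (0.89) and Gpr34 (0.87). Myd88 was most like Adgre5 (0.93), Arpc1b and Itgal (0.92 each), the last an integrin subunit of leukocytes. The less abundant members had less close matches. Tlr9 was most like Cd4 (0.73), Ctse and Tgfb1 (0.71 each), Tlr4 most like Tmeff1 (0.73), Selt and St7l (0.68 each), Ly96 most like Taf9b (0.67), Hsf2 and Psma3 (0.64 each), and Cd14 most like Tmed3 (0.63), LOC103689931 (0.60) and Lgmn (0.57). The median r over all those genes lay between -0.05 and 0.02 for every member.

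The rest of the pathway was described from lists of 92 genes, of which 74 were tested. Between HFD and chow 20 of 74 were called ad libitum (6 higher, 14 lower), 36 under dark-feeding (13 higher, 23 lower) and 33 under light-feeding (13 higher, 20 lower), against 20.1%, 45.9% and 50.3% of all tested genes. Of all tested genes, 10.1% were called lower ad libitum and 23.1% under dark-feeding. Of 10 transcription factors of the pathway, 0 were higher, and 5, 6 and 5 were lower ad libitum, under dark-feeding and under light-feeding. The kinases and ubiquitin ligases were mixed, with 5 higher and 3 lower of 21 ad libitum, 8 and 2 under dark-feeding, and 6 and 6 under light-feeding. Of 15 negative regulators 1 was higher and 3 lower ad libitum, 2 and 7 under dark-feeding, and 3 and 4 under light-feeding. Of 16 listed cytokine and chemokine outputs 5 had enough reads to be tested, and 1 was called, higher under light-feeding.

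Under light-feeding Il1r1, the interleukin-1 receptor that also signals through MYD88, had 2.11 ± 0.648 CPM under HFD and 4.06 ± 1.24 CPM under chow (SD, n = 33 each), a log2 fold change of -0.92 (SE 0.11, edgeR adjusted p 2.3e-10). In the same comparison the mean endothelial score was 2.14 under HFD and 2.81 under chow, and its part in the change of Il1r1 was not tested. Irf5, a transcription factor downstream of MYD88, had 17.1 ± 3.37 CPM under HFD and 22.3 ± 3.70 CPM under chow in dark-feeding (-0.40, edgeR adjusted p 2.2e-07), and 17.1 ± 3.10 CPM under HFD and 22.3 ± 4.18 CPM under chow in light-feeding (-0.37, edgeR adjusted p 1e-06). The inhibitory receptor Cd300lf had 12.3 ± 3.27 CPM under HFD and 16.4 ± 4.16 CPM under chow in dark-feeding (-0.42, edgeR adjusted p 7.3e-07). In light-feeding Cd300lf had 12.2 ± 2.23 CPM under HFD and 15.8 ± 2.54 CPM under chow (-0.38, edgeR adjusted p 5.9e-08). The mean microglia score was also lower under HFD, at 5.54 against 5.79 in dark-feeding and 5.55 against 5.77 in light-feeding. Its part in the changes of Irf5 and Cd300lf was not tested. Chuk, which encodes the kinase IKK-alpha, rose under HFD by 0.13 ad libitum (edgeR adjusted p 0.0038) and 0.22 under dark-feeding (edgeR adjusted p 2.5e-07) on the log2 scale. The ubiquitin ligase Traf3 had 52.0 ± 3.46 CPM under HFD and 60.1 ± 8.03 CPM under chow in light-feeding (-0.20, edgeR adjusted p 8e-07). Ad libitum, Lgmn, a protease that cuts endosomal receptors, had 162 ± 9.00 CPM under HFD and 180 ± 27.9 CPM under chow (-0.16, edgeR adjusted p 0.0037), Tab1 had 38.5 ± 3.01 CPM under HFD and 41.5 ± 3.15 CPM under chow (-0.11, edgeR adjusted p 0.0036), and Ikbkg had 40.1 ± 3.93 CPM under HFD and 36.4 ± 4.91 CPM under chow (0.15, edgeR adjusted p 0.0046).

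Between schedules fewer genes of the pathway lists were called. Under HFD, dark-feeding against ad libitum gave 1 higher and 2 lower of 74, against 4.7% of all tested genes, among them Cd300lf at 12.3 ± 3.27 CPM under dark-feeding and 14.8 ± 3.96 CPM ad libitum (-0.29, edgeR adjusted p 0.0037). HFD light-feeding against ad libitum gave 9 of 74, 3 higher and 6 lower, against 10.7% of all tested genes. Cnpy3, a chaperone of Toll-like receptors, had 57.8 ± 5.78 CPM under light-feeding and 52.2 ± 5.00 CPM ad libitum (0.14, edgeR adjusted p 0.0026), and Slc15a4, an endosomal transporter, had 44.3 ± 4.05 CPM under light-feeding and 40.9 ± 5.24 CPM ad libitum (0.12, edgeR adjusted p 0.013). Of the lower genes, the protease Ctsk had 11.0 ± 1.35 CPM under light-feeding and 12.5 ± 1.96 CPM ad libitum (-0.18, edgeR adjusted p 0.017). In chow edgeR called 0 of 74 between schedules, where Tab3 (dark-feeding against ad libitum, -0.15, edgeR adjusted p 0.38) and Peli2 (light-feeding against ad libitum, -0.10, edgeR adjusted p 0.16) had the smallest p-values. Rhythms were called for 19 of 74 under HFD ad libitum, 33 under HFD dark-feeding, 3 under HFD light-feeding, 14 in chow dark-feeding, 12 in chow light-feeding and 3 in chow ad libitum. All tested genes were called at 19.6%, 27.5%, 0.841%, 22.9%, 20.3% and 4.56% in the same order. Except under HFD dark-feeding and HFD light-feeding, the counts were near or below these shares. In HFD dark-feeding the 4 with the smallest p, a choice made after their values were seen, were Cd300lf (0.94, peak ZT5.9, edgeR adjusted p 1e-06), Ly86 (0.98, peak ZT5.0, 0.00024), Irf8 (0.70, peak ZT5.7, 0.00032) and Map3k8 (0.96, peak ZT5.2, 0.00051). Their peaks lay between ZT5.0 and ZT5.9, beside that of Tlr2 at ZT4.9. In HFD ad libitum the corresponding 4 fell on both sides of the day. Cd300lf (0.89, peak ZT3.6, edgeR adjusted p 6.7e-06) and Unc93b1, which carries the endosomal receptors to endosomes (0.45, peak ZT3.9, 0.00037), peaked in the light phase, and the kinase gene Map3k7 (0.30, peak ZT17.9, 4.7e-05) and Slc15a4 (0.34, peak ZT19.3, 0.0012) in the dark phase.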

How the data were processed

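Messenger RNA was enriched on beads and sequenced from strand-specific libraries, per the labels' protocols, and the submitters' processing notes name the build Rnor_6.0. Which aligner and counter were used is not given in the sources used here. Both tables were used as the authors deposited them: expected counts, without normalisation and with 8.03% of entries not whole, and FPKM values. All entries of the 8 genes were whole. Expected counts were rounded to whole numbers, where raw counts had been foreseen. No pair of libraries was alike within sampling noise (closest of 19900 pairs, chi-square 2.25 per degree of freedom).

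Counts were scaled by TMM over 200 libraries, filtered by edgeR's filter over the 6 groups, and tested in edgeR 4.0.16 (quasi-likelihood F test, R 4.3.3), with Benjamini-Hochberg adjustment over 14393 genes and a threshold of 0.05. Fits of a pair of groups held time as a factor; rhythms held a cosine and sine of 24 h. Alternatives used DESeq2 1.42.0 and limma 3.58.1 on log2(FPKM + 0.1). Scores are mean log2 CPM with a prior count of 2. Permutation tests were two-sided, in Python 3.11.15 with numpy 2.4.6 and scipy 1.17.1, and figures used matplotlib 3.10.9. The count test was checked on simulated data.

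Alternatives were other size factors, no low-count filter, FPKM, all libraries in 1 fit, runs of library numbers at most 2 apart, a spline of library number with 3 degrees of freedom, covariates, time as a factor, and leaving out each time or each library that stood apart. The named genes were all 8 members, and up to 4 pathway genes with the smallest adjusted p in each comparison of groups, or up to 2 with the smallest p where none passed, together with the 3 most alike genes, of which some are not reported here. The members and lists were chosen with earlier results of these data known.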

Additional observations from a re-analysis of the deposited data

Results flagged for a closer look

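The highest or lowest library stood apart from the others of its group and time, by Dixon's criterion at the 95% level, in 16 of 288 tests. Chance gives about 1 in 20, or 14.4 tests, so the number is near what chance gives. The libraries numbered 14, and in 8 of the 16 tests the library was also beyond the others in its microglia score on the same side. All values here are CPM.

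Tlr2 had a lowest library of 10.4 at ZT22 in HFD light-feeding (the others were 16.4 to 19.5), a highest of 30.0 at ZT14 in chow ad libitum (others 13.5 to 17.8) and a lowest of 8.35 at ZT18 in chow dark-feeding (others 14.1 to 16.7). The microglia score of the library at 30.0 was 6.59, against 4.99 to 6.26 in the others, and that of the library at 8.35 was 4.94, against 5.28 to 5.80. Tlr3 had a lowest library of 6.39 at ZT18 in HFD light-feeding (others 7.89 to 8.36), and a highest of 11.0 at ZT22 in chow light-feeding (others 8.01 to 8.64). A single library at ZT18 in chow light-feeding was the highest both for Tlr3, at 15.6 (others 6.16 to 9.07), and for Myd88, at 11.2 (others 3.52 to 5.65). Its microglia score was 6.48, against 5.54 to 5.87.

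Another single library, at ZT6 in HFD ad libitum, was the highest both for Tlr4, at 7.85 (others 2.08 to 3.32), and for Tlr9, at 4.89 (others 1.22 to 2.11), with a microglia score of 6.17, against 5.46 to 5.70. Tlr4 had a lowest library of 1.5 at ZT14 in HFD light-feeding (others 3.48 to 4.14). Tlr7 had a highest library of 26.2 at ZT2 in HFD ad libitum (others 19.2 to 20.8) and of 24.3 at ZT14 in HFD dark-feeding (others 13.0 to 15.0). Tlr9 had a highest library of 5.07 at ZT2 in HFD dark-feeding (others 2.93 to 3.56) and a lowest of 1.84 at ZT10 in HFD light-feeding (others 3.32 to 3.88). Cd14 had a highest library of 2.85 at ZT14 in HFD ad libitum (others 0.893 to 1.56), and Ly96 one of 2.65 at ZT22 in the same group (others 1.40 to 1.84).

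The rhythm of Myd88 differed between groups by edgeR's test of the difference itself, with a size of 1.05 (log2, peak to trough, adjusted p 0.015) for HFD light-feeding against HFD ad libitum, and of 0.85 (adjusted p 0.045) for HFD light-feeding against chow light-feeding.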

How the results depend on the processing

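No paired analysis was possible because the replicate numbers were given in accession order. Over the alternatives, 258 counts of members called were on the same side and within 1.5 times of the main count, 64 were lower and 16 higher. Cd14, Ly96, Tlr4 and Tlr9 are limited by their low counts, and single calls near the threshold moved across it often. Size factors of DESeq2 in place of TMM left every count of members called within 1.5 times.

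With the microglia score, members called were 1 (Tlr2) for the rhythm in chow ad libitum, 2 in chow light-feeding, 0 in chow dark-feeding and in each HFD group, 1 for the difference in rhythm of light-feeding against ad libitum in chow (Tlr2), and 0 for the difference of light-feeding against ad libitum in HFD and that of HFD against chow in light-feeding. In the same fit 1 (Myd88) was called for dark-feeding against ad libitum in HFD, and 0, 0 and 5 for HFD against chow ad libitum, in dark-feeding and in light-feeding. Signs turned in that fit, for members called with or without the score, for Tlr2 under dark-feeding (0.111, edgeR adjusted p 0.0832) and, under light-feeding, for Tlr2 (0.177, 0.00205), Tlr7 (0.112, 0.039) and Myd88 (0.2, 0.0241). Signs also turned for members called in neither fit, among them Tlr3, Tlr7 and Tlr9 ad libitum (0.118, 0.043 and 0.055), Tlr3, Tlr7, Cd14 and Myd88 under dark-feeding (0.085, 0.143, 0.205 and 0.058), and Tlr3 and Cd14 under light-feeding (0.069 and 0.123). With runs of libraries as the unit, 1 was called for the rhythm in HFD dark-feeding and 0 for those in HFD ad libitum, HFD light-feeding, chow dark-feeding and chow light-feeding, for both differences in Myd88, and for the diet ad libitum and in dark-feeding; fewer units enter that fit. With FPKM and limma, 1 was called for the rhythm in chow dark-feeding, 0 in chow light-feeding, 2 for the difference of light-feeding against ad libitum in HFD, 0 for the diet ad libitum and 3 in dark-feeding (Myd88, Tlr2 and Tlr3). With no filter on low counts, which tests more genes, 1 was called for the rhythm in chow dark-feeding, and 0 for the difference of HFD against chow in light-feeding and for the diet ad libitum and in dark-feeding. With time as a factor 0 were called in chow light-feeding, with all libraries in 1 fit 2 for the diet ad libitum, and with scores of other cells 0 for the diet in dark-feeding. Unless stated, the cause was not tested.

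Leaving out each time or library that stood apart, the latter chosen after the values were seen, gave 0 to 2 called for the rhythm in HFD ad libitum, 1 to 5 in HFD dark-feeding, 0 to 1 in HFD light-feeding, 0 to 2 in chow dark-feeding and 0 to 1 in chow light-feeding. The differences in rhythm gave 0 to 1 for HFD against chow in dark-feeding and in light-feeding, and 0 to 2 for light-feeding against ad libitum in HFD. The diet gave 0 to 1 ad libitum and 0 to 2 in dark-feeding. Of the called results, the rhythm of Tlr2 in HFD dark-feeding was kept under 13 of 14 alternatives, those of Tlr2 and Myd88 in HFD ad libitum each under 13 of 16, and that of Tlr7 in chow dark-feeding under 10 of 13. The rhythm of Tlr7 in chow light-feeding was kept under 5 of 14, Cd14 in HFD dark-feeding under 7 of 14, Myd88 in HFD light-feeding under 9 of 16 and its difference from chow light-feeding under 8 of 17, and the lower Tlr2 under HFD under 9 of 19 ad libitum and 8 of 17 in dark-feeding.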
